A study of Mus musculus with 12 samples.

Results

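Foxa1, Foxa2 and Foxa3 are the 3 genes of the FoxA family of forkhead transcription factors, and the open chromatin around them was followed through 6 lists of ATAC-seq peaks from mouse embryos at embryonic day 7.5. A peak was counted for a gene when that gene was the nearest protein-coding gene to the peak's midpoint, within 100 kb and with distance 0 inside the gene. Peaks of the 6 lists that overlapped were joined into 1 open region. This gave 44 regions of the 99096 in the series: 33 for Foxa2, 7 for Foxa1 and 4 for Foxa3. Genes were matched by symbol to RefSeq on the mouse build mm10 (GRCm38).

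ATAC-seq marks open chromatin with a transposase that cuts and tags accessible DNA. All embryos, including those called wild type (WT), carried FoxA2 fused at its C-terminal end to the red fluorescent protein tagRFP on both alleles. The dHx embryos carried the same fusion without 10 residues of an alpha helix. Both knock-in lines were kept on a mixed C57Bl6/J x CD-1 background, the embryos were not sexed, and about 10 homozygous embryos were pooled for a sort. Cells were sorted on tagRFP into High (brighter than any heterozygous cell), Middle (above autofluorescence and up to the brightest heterozygous cell) and Negative, so the gates were set on the product of Foxa2 itself. The 12 samples form 6 groups of 2, named here by genotype and gate, with 2000 to 5000 cells per library, and each group has 1 peak list from its pooled samples. With 1 list per group no difference between groups could be tested. A peak present or absent in 1 list has no replicate check.

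FoxA proteins bind DNA through a winged-helix domain that resembles a linker histone, and they are known as pioneer factors because they can bind their sites in compacted chromatin. Foxa2 is needed for the node and notochord and acts with Foxa1 in the definitive endoderm, while Foxa3 is best known from later liver and gut. All of them recognise closely related forkhead words, and FoxA2 is known to act on the genes of its own family in endoderm.

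The promoter sequences that the lists bear on are printed first, 5′ to 3′ on the strand of the gene, as the 250 bases before each RefSeq start of transcription (GRCm38.p6). All 3 genes, and the long noncoding RNA gene 9030622O22Rik that lies beside Foxa2, are on the minus strand. Capitals mark the forkhead word TGTTTAC and its variants, namely TGTTTGC as well as TATTTAC together with TATTTGC, the FOXH1 word AATCCACA and the TATA word TATAAA, each searched on both strands. No marked word overlaps another. The promoter of Foxa1 (chr12:57546112-57546361) is shown because a peak overlapped its window in the RFP-positive lists and neither Negative list, that of Foxa2 (chr2:148046970-148047219) as the most upstream of its 3 starts, and that of Foxa3 (chr7:19023540-19023789) for comparison. The 2 noncoding promoters (chr2:148040486-148040735 and chr2:147985419-147985668) are shown because 2 of the Foxa2 regions lay over them. The one labelled first start belongs to the start at chr2:148040485, in a cluster of neighbouring starts. It is not the most upstream of them, which is chr2:148040513.

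Foxa1: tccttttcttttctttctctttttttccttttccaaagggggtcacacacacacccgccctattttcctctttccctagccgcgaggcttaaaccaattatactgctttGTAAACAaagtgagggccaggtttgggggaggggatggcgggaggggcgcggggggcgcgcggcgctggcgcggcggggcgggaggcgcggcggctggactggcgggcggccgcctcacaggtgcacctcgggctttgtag
Foxa2: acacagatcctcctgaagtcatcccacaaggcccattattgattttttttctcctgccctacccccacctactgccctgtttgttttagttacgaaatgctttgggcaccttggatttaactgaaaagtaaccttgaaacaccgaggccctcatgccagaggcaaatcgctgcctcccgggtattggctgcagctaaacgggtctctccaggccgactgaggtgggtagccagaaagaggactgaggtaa
Foxa3: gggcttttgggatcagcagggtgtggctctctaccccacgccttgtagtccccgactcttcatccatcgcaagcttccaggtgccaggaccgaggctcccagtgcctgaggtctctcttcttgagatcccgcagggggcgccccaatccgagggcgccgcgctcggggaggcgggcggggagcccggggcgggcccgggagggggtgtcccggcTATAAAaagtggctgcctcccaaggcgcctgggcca
9030622O22Rik, first start: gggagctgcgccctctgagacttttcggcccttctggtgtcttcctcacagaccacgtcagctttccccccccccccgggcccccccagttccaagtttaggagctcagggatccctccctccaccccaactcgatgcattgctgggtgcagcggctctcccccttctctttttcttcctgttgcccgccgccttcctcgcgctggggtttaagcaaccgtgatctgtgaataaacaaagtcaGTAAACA
9030622O22Rik, inner start: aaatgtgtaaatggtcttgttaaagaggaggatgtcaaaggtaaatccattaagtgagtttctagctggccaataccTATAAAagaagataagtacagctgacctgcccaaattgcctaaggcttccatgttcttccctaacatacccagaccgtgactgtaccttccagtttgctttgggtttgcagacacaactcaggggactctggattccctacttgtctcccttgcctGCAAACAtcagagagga

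The Foxa1 promoter holds 1 forkhead word, GTAAACA on the strand shown, 141 bases before the start as counted to its first base (chr12:57546246-57546252). Peaks of WT High, WT Middle and dHx High covered the whole word. The annotated gene runs on upstream past this start. The same word stands 7 bases before the start of 9030622O22Rik at chr2:148040485, and peaks of every list except WT Negative covered it. It lies after the most upstream start of that gene (chr2:148040513), whose own 250 bases hold none of the words. The inner noncoding start at chr2:147985418 has GCAAACA 17 bases before it, covered in dHx High and both Middle lists, and a TATA word 173 bases before it, covered in none. Foxa3 has a TATA word 36 bases before its start, covered in every list except WT High. The window of the most upstream Foxa2 start holds none of the words, which says only that these letters are not in those 250 bases. Of 21263 such windows of protein-coding genes, 10.4% hold a forkhead word, 11.6% a TATA word and 0.663% the FOXH1 word. A word is a match of letters and not a measured binding site.

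The lists held 37129 (dHx High) to 50424 (dHx Negative) peaks, and their relative depth, read from the background fitted to the peak scores, ran from a mean pileup of 0.476 in dHx High to 1.57 in dHx Negative. That reading takes the scores as p-values, which is not stated. The score of a peak was read, from its values, as a −log10 value of the authors' peak caller. Such a value grows with depth, so it is used only for rank, the percentage of the same list's peaks with a lower score. Ranks in lists of different lengths do not by themselves show a change. Intervals are Clopper-Pearson 95% intervals on counts of peaks or regions and cover counting error only. The loci fixed as markers did not separate the gates cleanly. Peaks near 5 definitive endoderm genes numbered 31 in WT High against 14 in WT Negative and 24 against 16 in dHx, and those near 4 node and notochord genes 13 against 3 and 12 against 6. Peaks near 4 visceral endoderm genes numbered 7 against 1 and 5 against 4. Peaks near 4 lateral mesoderm genes numbered 10 against 18 and 8 against 18, near 4 neuroectoderm genes 18 against 19 in both genotypes, and near 4 blood and endothelial genes 26 against 16 in WT but 13 against 31 in dHx. Promoters of the neuroectoderm genes were overlapped for 1 of 4 in each High list and for 3 of 4 in each Negative list. The 1 was Pax6 in WT and Sox2 in dHx. All 3 definitive endoderm promoters with a window were overlapped in every list. Node and notochord had 3 of 3 in WT High against 2 in WT Negative, but 2 against 3 in dHx. Lateral mesoderm had 1 against 2 of 2 in both genotypes. Visceral endoderm had 1 against 0 of 3 in WT and 0 against 0 in dHx. Blood and endothelium had 3 against 2 of 4 in WT and 3 against 3 in dHx. The part of other cell types in the results below was not tested, and in bulk samples fewer cells of a type and less signal per cell cannot be told apart.

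The 3 loci differ in how much room they have. Foxa2 (chr2:148042877-148046969) stands 667.8 kb from Pax1 on one side and 348.4 kb from Sstr4 on the other, so 204.1 kb lay nearest to it. Foxa1 (chr12:57540628-57548029) overlaps Ttc6 at its upstream end, and Mipol1 lies 83.4 kb away downstream, which left it 49.1 kb. Foxa3 (chr7:19013283-19023539) lies 0.838 kb from Sympk and 6.52 kb from Irf2bp1 and held 13.9 kb. Per 100 kb of that territory the regions numbered 16.2 for Foxa2, 14.3 for Foxa1 and 28.7 for Foxa3. Among 239 genes shorter than 20 kb with no other coding gene within 200 kb, 3 had more regions than Foxa2, and the median was 2.

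The start of Foxa2 was open in all 6 lists. Region chr2:148045181-148047200, which takes in the upstream part of the gene, had a peak of rank 88.7 in WT High, 86.8 in Middle and 77.2 in Negative, and in dHx 94.8 in High, 90.7 in Middle and 76.0 in Negative. Both Negative lists ranked it lowest, and the peaks there were also the narrowest. The peak covered 1631 bp in WT High, 1447 bp in Middle and 1036 bp in Negative, and in dHx 1939 bp in High, 1535 bp in Middle and 1192 bp in Negative.

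The extent of that peak decided which of the 3 RefSeq starts of Foxa2 it reached. The window of 250 bases before and 50 after the middle start (chr2:148045948) was overlapped by a peak in all 6 lists. The window of the most upstream start (chr2:148046969) was overlapped in every list but WT Negative, whose peak ended at 148046894, just short of the window's edge at 148046920. The most downstream start (chr2:148045464) was overlapped in the 4 RFP-positive lists and neither Negative list. Its window ends at 148045714, and the peak began at 148045764 in dHx Negative and 148045859 in WT Negative. Both patterns thus rest on the edges of a peak present in all 6 lists. The 4 RFP-positive lists, and neither Negative list, also overlapped the Foxa1 promoter, but with lists cut to about equal length the WT Middle peak there was lost. Foxa3 showed the opposite exception, with its promoter overlapped in every list but WT High, where the nearest peak (chr7:19024128-19024477) stopped short of the window on the Sympk side. Of the 21263 windows of protein-coding genes, 0.470% were overlapped in the 4 RFP-positive lists and neither Negative list, and 34.9% in all 6.

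**Figure D1:**
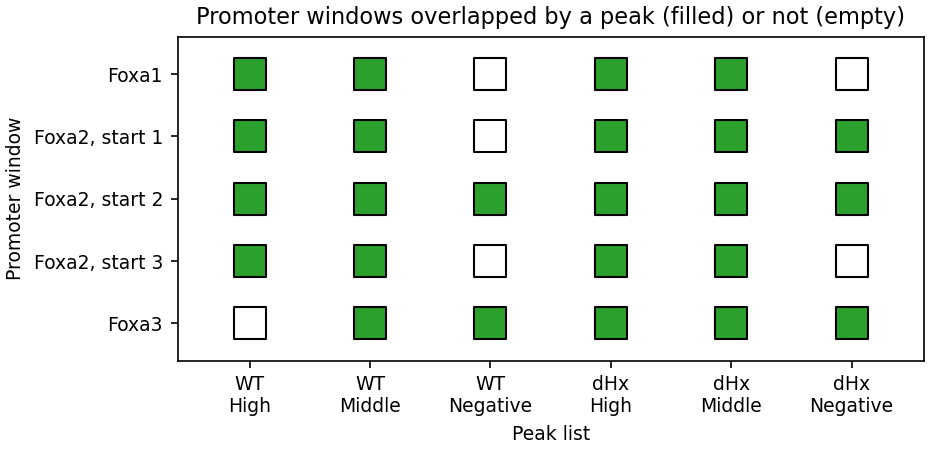
Promoter windows (vertical axis; 250 bases before to 50 after each RefSeq start) of Foxa1, Foxa2 and Foxa3 in the 6 peak lists (horizontal axis), filled where a peak of the list overlapped the window; Foxa2 start 1 is the most upstream and start 3 the most downstream. Foxa1 and Foxa2 start 3 are filled in the 4 RFP-positive lists alone, and Foxa2 start 2 in all 6; with lists of about equal length Foxa1 loses WT Middle.

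A pair of regions close upstream of Foxa2 were also in every list. The nearer (chr2:148048361-148049218), 1.82 kb upstream of the start, had rank 45.4 in WT High, 37.9 in Middle and 71.2 in Negative, and in dHx 72.8 in High, 57.3 in Middle and 65.2 in Negative. Here WT Negative ranked above both other WT lists. The next (chr2:148052730-148054055), 6.42 kb upstream, had rank 86.4 in WT High, 73.3 in Middle and 67.5 in Negative, and in dHx 72.8 in High, 67.1 in Middle and 52.3 in Negative. In both genotypes the order ran from High through Middle to Negative. Of the 7 Foxa2 regions in the gene or within 10 kb of it, 5 were in 5 or 6 lists, against 4 of the 26 farther away. The same count was not made for other genes, so the contrast is not shown to be particular to Foxa2. Over the series, 34.9% of coding promoter windows were overlapped in all 6 lists, and 13.6% of all regions were in all 6.

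Downstream of Foxa2 lies 9030622O22Rik (chr2:147944459-148040513), 2.36 kb from the gene and 96.1 kb long, and 17 of the 33 Foxa2 regions overlapped its body. That body takes up 96.1 kb of the 204.1 kb that lay nearest to Foxa2, so the count does not show a concentration there. The widest Foxa2 region (chr2:148039312-148042179) lay over the first starts of this noncoding gene, between it and Foxa2. In WT its peak had rank 87.6 in High and 51.3 in Middle, with none in Negative, and in dHx rank 25.4 in High, 57.3 in Middle and 9.49 in Negative. It covered 2158 bp with 5 summits in WT High and 866 bp with 4 in WT Middle. In dHx it covered 1770 bp with 2 summits in High, 2161 bp with 4 in Middle and 511 bp with 1 in Negative. It was thus broad in 3 of the 4 RFP-positive lists and narrow in the Negative list that had it. An inner pair of noncoding starts lay under region chr2:147984632-147985517, with peaks of rank 75.5 in WT Middle, 37.6 in dHx High and 51.1 in dHx Middle and none in the other lists.

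The strongest region far from Foxa2 lay 78.4 kb downstream, inside the noncoding gene (chr2:147968035-147969177). Its rank was 96.8 in WT High, 98.4 in Middle and 67.5 in Negative, and in dHx 97.2 in High, 98.7 in Middle and 78.0 in Negative. In every list but WT Negative it ranked above the peak at the Foxa2 start itself, which had rank 76.0 in dHx Negative. In WT Negative it ranked below the start, at 67.5 against 77.2.

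Several Foxa2 regions ranked higher in each Middle list than in the High list of the same genotype. At chr2:148001452-148002156, 45.2 kb downstream, the rank was 24.0 in WT High, 93.0 in Middle and 35.3 in Negative, and in dHx 37.6 in High and 88.9 in Middle, with no peak in dHx Negative. At chr2:148004895-148005712, 41.7 kb downstream, it was 36.4 in WT High, 94.1 in Middle and 44.2 in Negative, and in dHx 72.8 in High, 95.6 in Middle and 9.49 in Negative. At both places the WT High peak had a lower rank than the WT Negative peak. Upstream at 70.6 kb (chr2:148117203-148117978) the rank was 74.5 in WT High, 93.0 in Middle and 10.9 in Negative, and in dHx 25.4 in High, 86.5 in Middle and 46.5 in Negative. At 19.0 kb upstream (chr2:148065683-148066327) it was 92.1 in WT Middle, 12.6 in dHx High and 89.8 in dHx Middle, and WT High and both Negative lists had no peak. Among the 10 Foxa2 regions with a peak in all 4 RFP-positive lists, 4 ranked higher in Middle than in High in both genotypes and 3 the other way. Over all 17460 such regions of the series the shares were 23.1% and 32.6%. The 4 were those at 45.2 and 41.7 kb downstream and 70.6 kb upstream, and the one 78.4 kb downstream. At the last the ranks lay close, 98.4 in Middle against 96.8 in High in WT and 98.7 against 97.2 in dHx. The region 19.0 kb upstream had no WT High peak and is not among the 10. The 3 that ranked higher in High were the Foxa2 start and the pair close upstream of it.

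The same lists also differed in which Foxa2 regions they held at all. Both Middle lists and neither High list held 4 Foxa2 regions. They lay 14.7 kb upstream (chr2:148061464-148061861, rank 75.5 in WT Middle and 57.3 in dHx Middle) and 16.5 kb (chr2:148030182-148030687, 45.3 and 57.3), 21.2 kb (chr2:148025560-148025965, 67.8 and 0) and 33.4 kb downstream (chr2:148013428-148013752, 60.8 and 22.7). The one at 16.5 kb had a peak in dHx Negative too, at rank 31.1. These 4 are 9.09% of the 44 family regions (2.53% to 21.7%), against 4.10% of all regions. No family region was in both High lists and neither Middle list (0 of 44, upper bound 8.04%), against 3.37% of all. The Middle lists differ from the High lists in fitted depth as well as in gate, with a fitted background of 1.5 against 0.879 in WT and 0.786 against 0.476 in dHx. Peaks near the 4 visceral endoderm genes numbered 8 in WT Middle and 10 in dHx Middle, against 7 and 5 in the High lists, and a peak overlapped the promoters of 3 and 1 of the 3 with a window, against 1 and 0. The part of depth and of visceral endoderm cells in the Middle pattern was not tested.

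**Figure D2:**
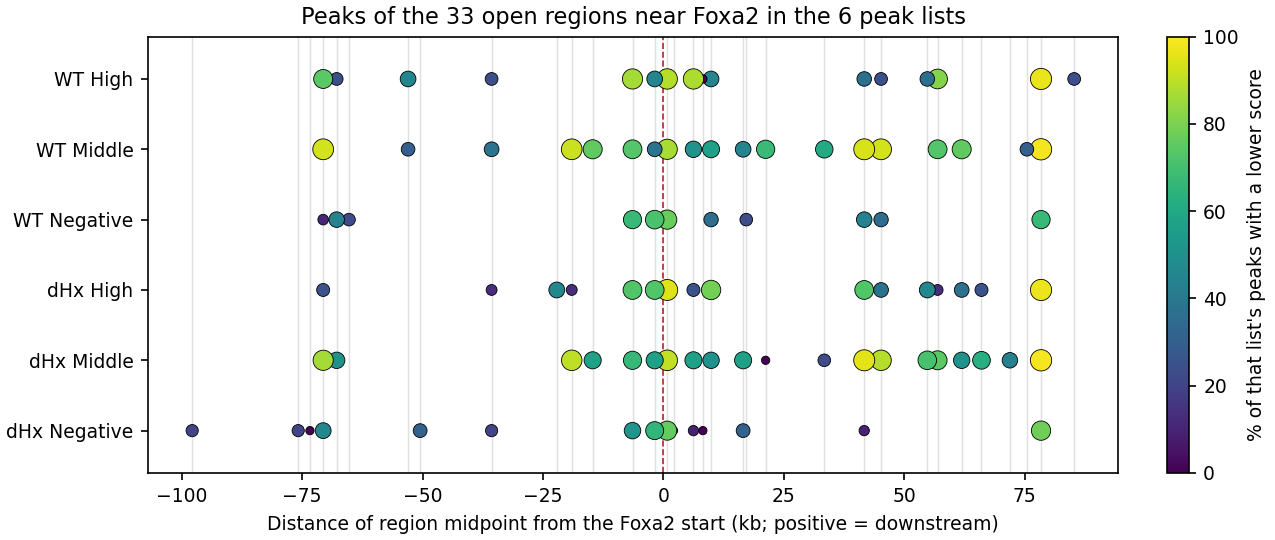
Peaks of the 33 Foxa2 regions in the 6 lists, by distance of the region's midpoint from the most upstream Foxa2 start in kb (horizontal axis, positive downstream); colour and point size show rank, the percentage of that list's peaks with a lower score. The Middle lists carry points of rank 88.9 or more at 41.7 and 45.2 kb downstream and 19.0 kb upstream, where the other lists have rank 72.8 or less or no peak, while the point 78.4 kb downstream is in all 6.

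A further region shared by 5 lists lay 9.88 kb downstream (chr2:148036797-148037379), with rank 45.4 in WT High, 56.4 in Middle and 35.3 in Negative, and in dHx 78.6 in High and 51.1 in Middle. Here dHx High ranked highest and dHx Negative had no peak. The region 54.8 kb downstream (chr2:147991919-147992499) had rank 36.4 in WT High, 46.7 in dHx High and 70.9 in dHx Middle and no peak in the other lists. Some of the other Foxa2 regions were held by few lists. Of the 33, 11 were in 1 list only (33.3%), against 45.3% of all regions. Of these 11, 5 were in dHx Negative, 2 in WT Negative and 1 in each other list. In dHx Negative, the list with the highest fitted background, the median rank of a Foxa2 peak was 20.3. It was 45.4 in WT High, 73.3 in Middle and 44.2 in Negative, and in dHx 42.2 in High and 59.9 in Middle. The Foxa2 peaks of WT Middle thus stood highest within their own list, and those of dHx Negative lowest. The only Foxa2 region in the 4 RFP-positive lists and neither Negative list lay 56.9 kb downstream (chr2:147989681-147990466). Its rank was 81.5 in WT High, 73.3 in WT Middle, 12.6 in dHx High and 74.2 in dHx Middle.

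Foxa1 had few assigned peaks in the Negative lists: 6 in WT High, 5 in Middle and 1 in Negative, and in dHx 8 in High, 6 in Middle and 2 in Negative. The whole lists held 45689 peaks in WT High and 39569 in WT Negative, and 37129 in dHx High and 50424 in dHx Negative. With so few regions the shares are uncertain: WT Negative had a peak in 1 of 7 (14.3%, 0.361% to 57.9%). All 7 Foxa1 regions lay at the start or downstream of it, and dHx High was the only list with a peak in every one. The rule fixed that layout, because peaks upstream of the gene fall inside Ttc6 and were assigned to it. The counts therefore leave out the upstream side. At the start, region chr12:57545064-57547059 was made of 2 separate peaks in each of the 4 RFP-positive lists. The peak that overlapped the promoter window had rank 36.4 in WT High and 19.0 in WT Middle, and in dHx 37.6 in High and 22.7 in Middle. In each genotype High ranked above Middle there. The other peaks of the region did not reach the window: downstream of it lay peaks of rank 12.0 in WT High, 45.3 in WT Middle and 35.3 in WT Negative, and upstream of it peaks of rank 64.9 in dHx High and 34.6 in dHx Middle. The dHx Negative list had no peak in the region.

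Beyond the 3′ end of Foxa1 lay a group of regions held mainly by RFP-positive lists. Of the 7 Foxa1 regions, 4 (57.1%) were in at least 1 RFP-positive list and neither Negative list, against 40.1% of all regions. The region 7.03 kb downstream of the start (chr12:57538428-57539734) was in the 4 RFP-positive lists and neither Negative list, with rank 79.4 in WT High, 29.8 in WT Middle, 46.7 in dHx High and 67.1 in dHx Middle. The region at 8.95 kb (chr12:57536830-57537498) had rank 52.6 in WT High, 72.8 in dHx High and 22.7 in dHx Middle, and no peak elsewhere. The one at 11.0 kb (chr12:57534741-57535533) had rank 36.4 in WT High, 29.8 in WT Middle, 69.3 in dHx High and 0 in dHx Negative, the lowest score of that list. The strongest Foxa1 peak of any list by rank lay 18.8 kb downstream (chr12:57527097-57527578). Its rank in dHx was 84.7 in High and 57.3 in Middle, it was 19.0 in WT Middle, and WT High and both Negative lists had no peak there. The farthest region, 30.2 kb downstream (chr12:57515651-57516255), was weak, with rank 24.0 in WT High, 25.4 in dHx High and 34.6 in dHx Middle. The region inside the gene (chr12:57542183-57542445), 3.80 kb downstream of the start, was in dHx High at rank 25.4 and dHx Negative at rank 20.3 alone.

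Foxa3 had 1 to 3 assigned peaks in each list. Its promoter region (chr7:19023351-19024484) reaches to the start of Sympk, and all 6 lists had a peak in it. One wide peak overlapped the promoter windows of both genes in WT Middle (rank 82.3), dHx High (87.5) and dHx Negative (85.9), and in the last of these its midpoint was nearer to Sympk. In WT Negative and dHx Middle a narrow peak overlapped the Foxa3 window, with rank 35.3 and 34.6, and a separate one of rank 57.9 and 67.1 lay on the Sympk side. The WT High list had the Sympk-side peak alone, at rank 77.3. The wide peaks cannot be divided between the genes. A region inside the gene, 2.82 kb downstream of the start (chr7:19020457-19020991), had a peak in WT High (rank 81.5), dHx High (12.6) and dHx Middle (67.1) and in no Negative list. A region 11.2 kb downstream of the start (chr7:19012071-19012631) had rank 56.4 in WT Middle, and in dHx 53.9 in High, 74.2 in Middle and 0 in Negative. The last Foxa3 region (chr7:19019042-19019397), also inside the gene, was in WT Negative alone at rank 10.9.

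**Figure D3:**
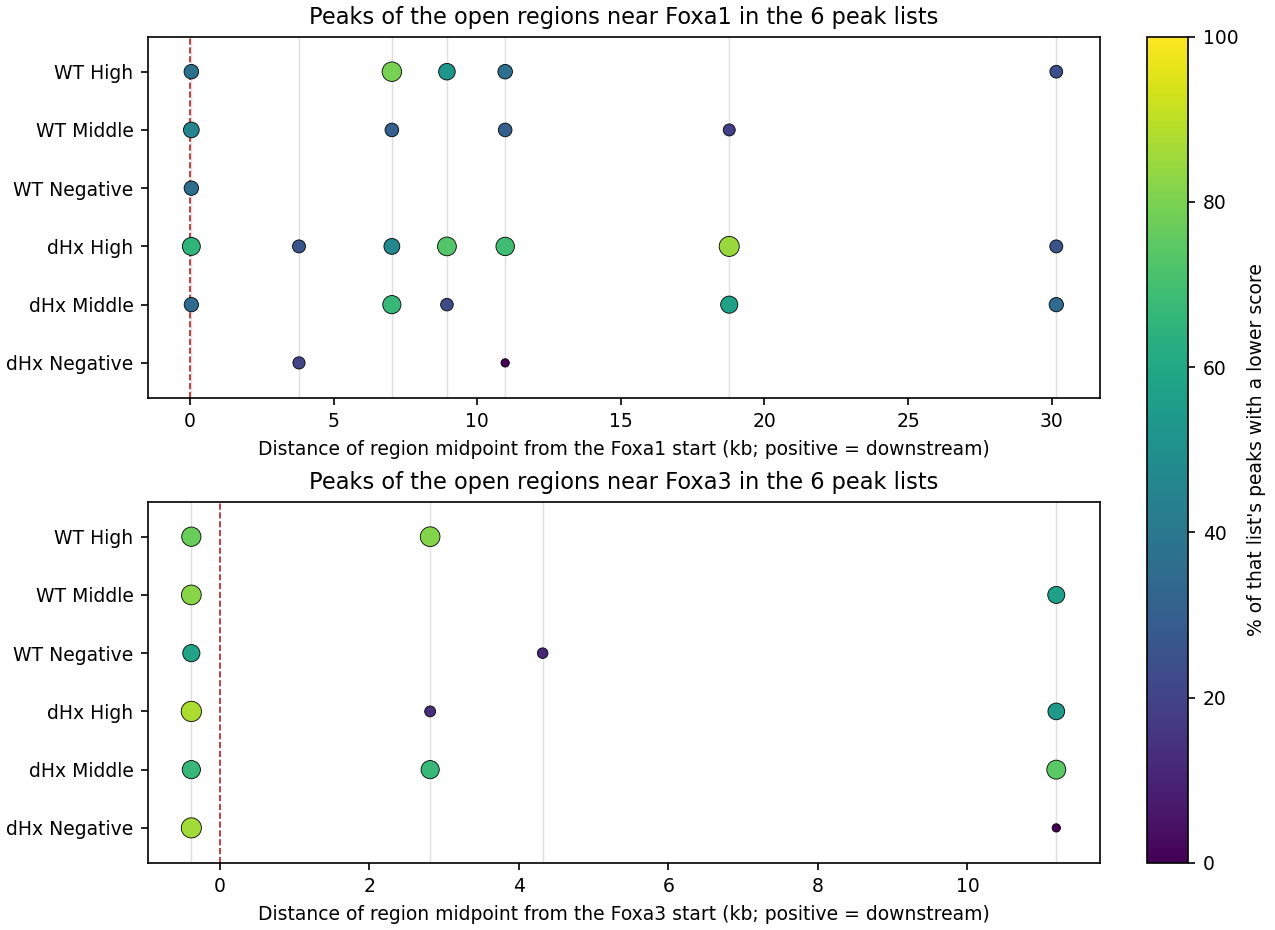
Peaks of the 7 Foxa1 regions (upper panel) and 4 Foxa3 regions (lower panel) in the 6 lists, by distance of the region's midpoint from the start in kb (horizontal axis, positive downstream); colour and size show the rank of the strongest peak of the list in the region, which at the starts can be one beside the promoter window or nearer to Sympk. The Foxa1 regions from 7.03 to 30.2 kb downstream carry no WT Negative point and 1 dHx Negative point of rank 0, while the Foxa3 promoter region carries a point in all 6 lists.

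Between the gates, the family as a whole was read through peaks with no overlapping peak in the other list. In WT High 13 of 23 family peaks had none in WT Negative (56.5%, 34.5% to 76.8%), against 49.0% of all WT High peaks, and in the other direction it was 4 of 14 (28.6%, 8.39% to 58.1%) against 41.0%. In dHx High 15 of 27 family peaks had none in dHx Negative (55.6%, 35.3% to 74.5%) against 38.9%, and in the other direction 7 of 18 (38.9%, 17.3% to 64.3%) against 54.4%. All 4 shares leaned toward High relative to the background of the lists, and each interval held that background. Foxa1 contributed 5 of 6 WT High peaks and 6 of 8 dHx High peaks without a Negative partner, Foxa2 7 of 16 and 8 of 16, and Foxa3 1 of 1 and 1 of 3. The Foxa2 share by itself was 43.8% in WT High, below the 49.0% of the list, and 50.0% in dHx High, above the 38.9%. The family peaks without a Negative partner had a median rank of 36.4 in WT High and 37.6 in dHx High, where such peaks over the whole list had 24.0 and 25.4.

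Counted over regions, 18 of the 44 had a peak in at least 1 RFP-positive list and neither Negative list (40.9%, 26.3% to 56.8%), against 40.1% of all regions. Those in a Negative list and no RFP-positive list numbered 8 (18.2%, 8.19% to 32.7%) against 20.1%, and 7 of them were near Foxa2, none near Foxa1 and 1 near Foxa3. In all 6 lists were 7 regions (15.9%, 6.64% to 30.1%) against 13.6%, 6 of them near Foxa2 and none near Foxa1. The 4 RFP-positive lists and neither Negative list shared 2 (4.55%, 0.555% to 15.5%) against 2.08%. A single list held 12 (27.3%, 15.0% to 42.8%), against 45.3% of all regions. These shares lie near the background, except that the interval for regions held by a single list ended below it.

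Between the genotypes, most family peaks of the RFP-positive gates were found in both. In WT High 5 of 23 had no dHx High peak (21.7%, 7.46% to 43.7%) against 43.0% of the list, and in dHx High 7 of 27 had no WT High peak (25.9%, 11.1% to 46.3%) against 30.6%. In WT Middle 4 of 26 had no dHx Middle peak (15.4%, 4.36% to 34.9%) against 43.9%, and in dHx Middle 7 of 29 had no WT Middle peak (24.1%, 10.3% to 43.5%) against 30.9%. The Negative lists, of which dHx has the higher fitted background, shared fewer of their family peaks: 7 of 14 WT Negative peaks had no dHx Negative peak (50.0%, 23.0% to 77.0%) against 28.8%, and 12 of 18 the other way (66.7%, 41.0% to 86.7%) against 44.5%. Only the WT Middle interval left out its background. Regions in WT lists only numbered 6 (13.6%, 5.17% to 27.4%) against 26.9%, and in dHx lists only 9 (20.5%, 9.80% to 35.3%) against 23.8%. The dHx lists of both RFP-positive gates had a lower fitted background than their WT partners, and the part of depth was not tested.

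**Figure D4:**
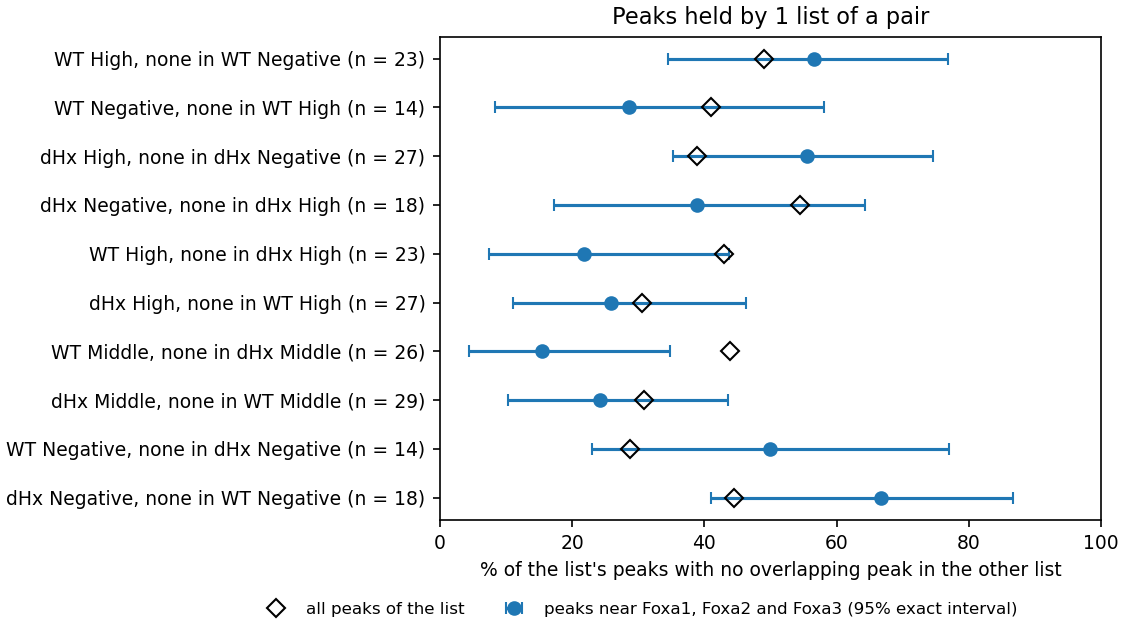
Share of peaks (horizontal axis, percent) with no overlapping peak in the other list of a pair (vertical axis, with the number of family peaks); filled points are peaks near Foxa1, Foxa2 and Foxa3 with Clopper-Pearson 95% intervals, open diamonds all peaks of the list. The diamond lies outside the interval for WT Middle against dHx Middle alone, where 15.4% of family peaks stand against 43.9% of all.

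Regions with a peak in both High lists show how individual places ranked in WT and dHx. Of the 12 such Foxa2 regions, 7 had a higher rank in dHx High and 5 a lower one, and the median difference (dHx minus WT) was 3.27 percentage points. Of the 5 such Foxa1 regions, 4 ranked higher in dHx High, with a median difference of 20.2 points. With the peaks over the Foxa1 promoter window in place of the strongest peaks at the start, a comparison added after seeing the data, the median was 1.40 points. The count was again 4 of 5, but it then included differences of only 1.19 points at the start and 1.40 points at 30.2 kb downstream. Low scores take few distinct values, so many peaks of a list share a rank. Differences that small are less than the step between such ranks, as from 25.4 to 37.6 in dHx High, and give no direction. Of the 2 Foxa3 regions 1 ranked higher in dHx High, the promoter region, where the WT High peak is the one beside Sympk. Over all 25386 regions in both High lists, 11624 ranked higher in dHx High and 13582 lower, with a median difference of -1.39 points. The lowest differences were -68.9 points at the Foxa2 region 56.9 kb downstream and at the region inside Foxa3, and -62.2 points at the first starts of 9030622O22Rik, while the highest was 36.4 points at the Foxa2 region 41.7 kb downstream. These regions were chosen for a peak in both High lists, so they do not show how far the lists named the same places. Some of them ranked far apart, in both directions.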

How the data were processed

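The deposited files are 6 peak lists on mm10, 1 per group of 2 samples. STAR 2.5.2a and MACS2 are named in the submitters' processing notes, with neither a role nor a setting. The peak names hold the word Pooled, so each list was read as 1 list of pooled samples. Each peak's deposited score was taken, from its values, as a −log10 p-value or q-value of the authors' peak caller; which of these is not stated. As a measure of depth, a background was fitted to the 40 lowest distinct scores as a Poisson mean. The fit takes the scores as p-values, so if they are q-values it may not measure depth. Lines with the same start and end were merged, and peaks counted as shared when they overlapped by 1 bp or more, and were assigned to the nearest of 21887 RefSeq genes. Where genes overlap, a tie went to the gene that starts first on the chromosome. A region counts as present in a list where any peak of that list overlaps it. Promoter windows matched all 3 genes; other genome sequence, proteins and exon positions were not used here. Overlap and assignment were tested on simulated data. Python 3.11.15, pandas 2.3.3, NumPy 2.4.6, SciPy 1.17.1 and matplotlib 3.10.9 were used. The named genes were the 3 members with all their regions, their neighbours, 6 forkhead genes and, by count of regions in RFP-positive lists, the leading forkhead and pathway genes, of which 1 is not reported here. Members, lists and rules were chosen with earlier results of these data known. Alternatives changed the overlap, score threshold, window, assignment and joining.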

Additional observations from a re-analysis of the deposited data

How the results depend on the processing

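Across 9 counts and 6 alternatives, 40 of 54 values stayed within 1.5 times the reported count and 14 did not. The limits are those of 1 pooled list per group: a weak peak can be missing for want of depth, and depth was known only from the scores. Requiring overlap of 50% of the shorter peak, or joining peaks across gaps of up to 200 bp, kept every count within that range. With the gene window at 50 kb, Foxa2 regions numbered 17, regions in the 4 RFP-positive lists and neither Negative list 1, and WT High peaks without a dHx High peak 2. With every peak within 100 kb taken, whatever gene was nearer, Foxa1 had 24 regions, Foxa3 29, regions in all 6 lists 16, and those in the 4 RFP-positive lists and neither Negative list 5. WT High peaks without a WT Negative peak then numbered 25 and without a dHx High peak 12, and dHx High peaks without a WT High peak 13 and without a dHx Negative peak 25. With scores of at least 5, 0 regions were in the 4 RFP-positive lists and neither Negative list, and 7 WT High peaks had no WT Negative peak. With lists of about equal length, 3 WT High peaks had no dHx High peak. In those lists the Foxa1 promoter had no WT Middle peak, while the most downstream Foxa2 start kept its pattern. The Foxa1 median of rank differences, dHx High minus WT High, moved from 20.2 to 1.40 points with the peaks over its promoter window, an alternative chosen after seeing the data. No paired analysis was possible because each list pools both samples of its group, and no replicate could be left out.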

Other observations

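The other 41 forkhead genes of RefSeq were read the same way. In all, 40 of them had a region, 322 in sum with a median of 5 per gene, and 12.4% of these were in all 6 lists, against 13.6% of all regions. In the 4 RFP-positive lists and neither Negative list were 9 (2.80%), in 6 genes, against 2.08% of all regions. Foxn3, a widely expressed forkhead repressor, had 3 of its 46 regions with that pattern and Foxp4, a factor of foregut epithelia, 2 of 26. Foxd2, Foxd4, Foxj1 and Foxp1 had 1 each, and 35 genes had none. Foxj1, the regulator of motile cilia, had it in 1 of 5 regions and Foxd4 in 1 of 2. Foxh1, the Nodal effector, had it in 0 of 4, Foxb1 in 0 of 16, Foxc1, a mesodermal factor, in 0 of 10 and Foxc2 in 0 of 1. Both Middle lists and neither High list held 6.21% of the forkhead regions, against 4.10% of all.

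Around 25 genes of the FoxA2 pathway (Nodal signals, partners and endoderm or node targets) there were 256 regions, with a median of 10 per gene, and 9.38% were in all 6 lists, against 13.6% of all regions. The 4 RFP-positive lists and neither Negative list held 18 (7.03%), in 12 genes, against 2.08% of all regions. Cdh1, which encodes E-cadherin, had 3 of 15, Sox17, an endoderm regulator, 2 of 14 and Shh, the notochord signal, 2 of 8. Both Middle lists and neither High list held 7.81%, again against 4.10%.

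Close to Foxa1, 3 regions that were nearer to another gene were in the 4 RFP-positive lists and neither Negative list. One lay 5.10 kb upstream of the gene inside Ttc6 (chr12:57552834-57553418), and the others 44.1 kb (chr12:57496103-57496956) and 96.0 kb (chr12:57444064-57445114) downstream on the side of Mipol1. These 3 were chosen after their values were seen, and other regions around Foxa1 that were nearer to another gene had other patterns. The closest to Foxa1 lay 1.35 kb upstream (chr12:57548942-57549811). It was in both Negative lists, dHx High and dHx Middle, but in neither WT High nor WT Middle. The region 4.56 kb upstream (chr12:57552361-57552814) was in WT Negative alone, and that 24.5 kb upstream (chr12:57572002-57572992) was in all 6 lists. Several others were in 1 list only. The region of Foxa2 farthest from it lay 97.8 kb upstream, in dHx Negative alone, and the first region past the 100 kb limit lay 107.9 kb downstream, in WT High alone.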
